A study of Homo sapiens with 2 samples.

Results

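miR-221 and miR-222 are microRNAs (miRNAs) made from 2 neighbouring hairpins on the X chromosome. Each hairpin can release a mature strand from its 5′ arm (5p) and another from its 3′ arm (3p), so that the pair gives 4 mature miRNAs: hsa-miR-221-3p, hsa-miR-221-5p, hsa-miR-222-3p and hsa-miR-222-5p, written below without the species prefix. These 4 were chosen by name from a table of small RNA counts and make up 4 of the 859 mature miRNAs listed there. The choice was made with the levels and the ratios between the libraries already known, that of miR-221-3p above all, so these values are given as a description. All 4 are accounted for, and 3 of them passed the filter on low levels used below, the exception being miR-222-5p.

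The counts came from A549, a cell line established from a human lung adenocarcinoma and grown in DMEM medium with 10% fetal calf serum. One culture was held at 20% oxygen (normoxia) and another at 1.2% oxygen (hypoxia), in both cases for 24 hours before lysis. Each condition is represented by 1 small RNA library, without replicate. No difference between the conditions can therefore be set against the spread between cultures, and no test of oxygen was made. The intervals below are 95% intervals for counting error only, since the reads carry no molecular identifiers and ligation and PCR add errors of their own.

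A miRNA hairpin is cut out of a longer transcript by Drosha and then opened by Dicer, which leaves a short duplex of both arms. One strand, the guide, is loaded into an Argonaute protein and directs it to messenger RNAs that pair with its seed, bases 2 to 8. The other, the passenger, is usually discarded and degraded. miR-221-3p and miR-222-3p are the guides of their hairpins, are abundant in many tumours, endothelial cells and smooth muscle, and are known to repress the cyclin-dependent kinase inhibitor CDKN1B and the receptor KIT.

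The mature sequences are shown because the seed defines what the arms have in common. They are the sequences of the deposited table without the extra base that it adds at either end, and capitals mark the seed.

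miR-221-3p: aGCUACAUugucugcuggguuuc
miR-222-3p: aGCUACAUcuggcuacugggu
miR-221-5p: aCCUGGCAuacaauguagauuu
miR-222-5p: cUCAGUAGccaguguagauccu

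Both 3p arms carried the seed GCUACAU and were identical over their first 8 bases. Beyond them the sequences diverged, with an edit distance (substitutions, insertions and deletions) of 6 over the whole length. No other listed mature miRNA with a sequence had this seed, and 9 of the 859 were without one and could not be compared. The 5p arms had different seeds, CCUGGCA and UCAGUAG, which no other listed miRNA with a sequence shared, and their edit distance was 10. They nevertheless had the run UGUAGAU in common, at bases 14 to 20 of miR-221-5p and 13 to 19 of miR-222-5p. The nearest other listed miRNAs with a sequence were at an edit distance of 7 from miR-222-3p and of 8 from each of the other 3 arms.

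The hairpins are printed from RefSeq to show where the arms lie, with both mature arms in capitals.

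MIR221: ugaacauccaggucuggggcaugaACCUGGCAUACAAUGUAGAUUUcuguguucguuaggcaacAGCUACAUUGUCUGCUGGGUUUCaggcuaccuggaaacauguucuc
MIR222: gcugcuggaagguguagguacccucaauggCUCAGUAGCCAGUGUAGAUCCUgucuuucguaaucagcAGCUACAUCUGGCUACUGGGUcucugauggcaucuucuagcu

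In the build of the table (hg19 per the labels), the MIR221 hairpin spanned chrX:45605585-45605694 and the MIR222 hairpin chrX:45606421-45606530, with 726 bases between them. In GRCh38 they lie on the minus strand at chrX:45746157-45746266 and chrX:45747015-45747124, 748 bases apart, so that MIR222 is upstream of MIR221. GENCODE places both inside the intron of the 2-exon transcript of the lincRNA gene MIR222HG (chrX:45745211-45770274, minus strand), at 56 bases from its last exon for MIR221 and 22661 bases from its first exon for MIR222. No exon of this gene overlapped them. Within 25 kb of the hairpins the table listed 6 features, namely the 4 mature arms and an entry for each whole hairpin.

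**Figure D1:**
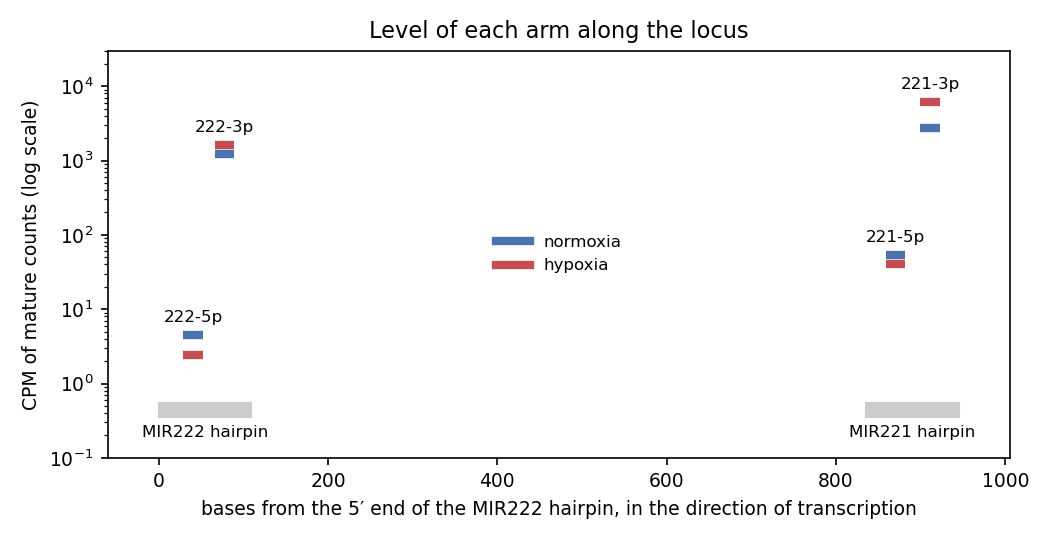
CPM of mature miRNA counts (log scale) of each arm, drawn at its place along the locus in bases from the 5′ end of the MIR222 hairpin. Blue lines are the normoxia library, red lines the hypoxia library and grey boxes the hairpins. The red line lies above the blue line for both 3p arms and below it for both 5p arms.

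The start of the host transcript is shown because both hairpins lie within it. The window runs from 250 bases before to 50 bases after the RefSeq start of MIR222HG, at chrX:45770218-45770517 of GRCh38 on the minus strand.

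MIR222HG: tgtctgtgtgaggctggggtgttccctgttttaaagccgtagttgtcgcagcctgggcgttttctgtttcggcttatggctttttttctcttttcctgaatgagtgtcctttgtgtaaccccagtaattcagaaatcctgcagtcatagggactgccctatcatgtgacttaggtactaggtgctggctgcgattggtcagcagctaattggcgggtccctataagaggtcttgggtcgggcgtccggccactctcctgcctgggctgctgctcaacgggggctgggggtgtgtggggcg

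The short motifs ACGTG and GCGTG, the core of the element bound by hypoxia-inducible factors, were searched on both strands and matched 0 times in this window. Of 35116 promoters of the same length, 48.4% held at least 1 of them. The counts do not measure this start, and nothing is read from the absence.

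The table held 6449337 counts in normoxia and 13115226 in hypoxia, of which 4514818 and 8600160 fell on mature miRNAs. Levels are given as CPM, the counts in every 1000000 mature miRNA counts of the library, the scaling used throughout unless another is named. As each count is 1 read of a whole miRNA, levels were not divided by length, but miRNAs of different sequence may differ in how well they ligate, which was not tested. miR-210, the usual miRNA marker of low oxygen, was at 954 CPM in normoxia and 2657 CPM in hypoxia, the highest log2 ratio (1.48) of the 339 miRNAs with a mean log2 CPM above 3. Of 8 epithelial marker names 7 were listed, with a summed level of 1171 CPM in normoxia and 1365 CPM in hypoxia, most of it miR-200b-3p at 880 and 1085 CPM. Of the other 6, miR-141-3p was at 37.2 and 25.5 CPM (log2 ratio -0.54, interval -0.84 to -0.25), miR-429, miR-203 and miR-205-5p were also lower in CPM in hypoxia, and miR-200a-3p and miR-200c-3p were higher, at 132 and 138 CPM and 24.1 and 24.8 CPM. Among markers of cell types in which miR-221 and miR-222 are also abundant, the endothelial miR-126 arms summed to 222 CPM in normoxia and 221 CPM in hypoxia, with miR-126-3p at 179 and 190 CPM (809 and 1630 counts) and miR-126-5p at 42.5 and 31.4 CPM (log2 ratio -0.43, interval -0.71 to -0.16). The 6 listed of 8 muscle and fibroblast miRNAs summed to 185 and 173 CPM, most of it miR-143-3p at 104 and 96.2 CPM. Also lower in hypoxia were miR-199a-5p (43.4 and 38.1 CPM) and miR-145-5p (24.6 and 22.1 CPM), while miR-214-3p was higher (12.8 and 14.3 CPM). The counting interval of the log2 ratio held 0 for each of these. The rare miR-133a (0 and 18 counts) and miR-133b (0 and 3 counts) were seen in the deeper hypoxia library only. The 3 listed of 5 blood cell miRNAs summed to 19.7 and 23.1 CPM, and miR-223-3p was not listed. Most of the sum was miR-451a, at 18.2 and 22.2 CPM (log2 ratio 0.29, interval -0.09 to 0.68). miR-142-3p (5 and 6 counts) and miR-142-5p (2 and 2 counts) were lower in CPM in hypoxia.

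The 3p arms held nearly all counts of the locus, and both were higher in hypoxia, miR-221-3p about 2-fold and miR-222-3p by less. Both 5p arms were rare and were lower in hypoxia, the difference in miR-222-5p being within counting error.

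miR-221-3p had 12455 counts in normoxia, or 2759 CPM (interval 2711 to 2808), and 52333 counts in hypoxia, or 6085 CPM (6033 to 6137). It was the most abundant of the 4 arms in either library and moved from place 28 to place 14 among the 859 mature miRNAs. Its level in hypoxia was 2.21 times that in normoxia (counting interval 2.16 to 2.25), a log2 ratio of 1.14.

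miR-222-3p had 5614 counts in normoxia, or 1243 CPM (1211 to 1276), and 14009 counts in hypoxia, or 1629 CPM (1602 to 1656). The order of the libraries was the same as for miR-221-3p, but the ratio was 1.31 (1.27 to 1.35), or 0.39 on the log2 scale. Its place among all mature miRNAs was 50 in normoxia and 46 in hypoxia.

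The passenger of miR-221, miR-221-5p, had 241 counts in normoxia, or 53.4 CPM (46.9 to 60.6), and 351 counts in hypoxia, or 40.8 CPM (36.7 to 45.3). Although the deeper hypoxia library gave more reads, the level in CPM was lower there, with a log2 ratio of -0.38 (-0.63 to -0.14). That of miR-222, miR-222-5p, had 20 counts in normoxia and 21 in hypoxia, or 4.43 CPM (2.71 to 6.84) and 2.44 CPM (1.51 to 3.73). Its intervals overlapped, and its log2 ratio, with a prior count of 2, was -0.79. From the counts alone its level in hypoxia was 0.551 times that in normoxia, and the log2 interval ran from -1.81 to 0.10.

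**Figure D2:**
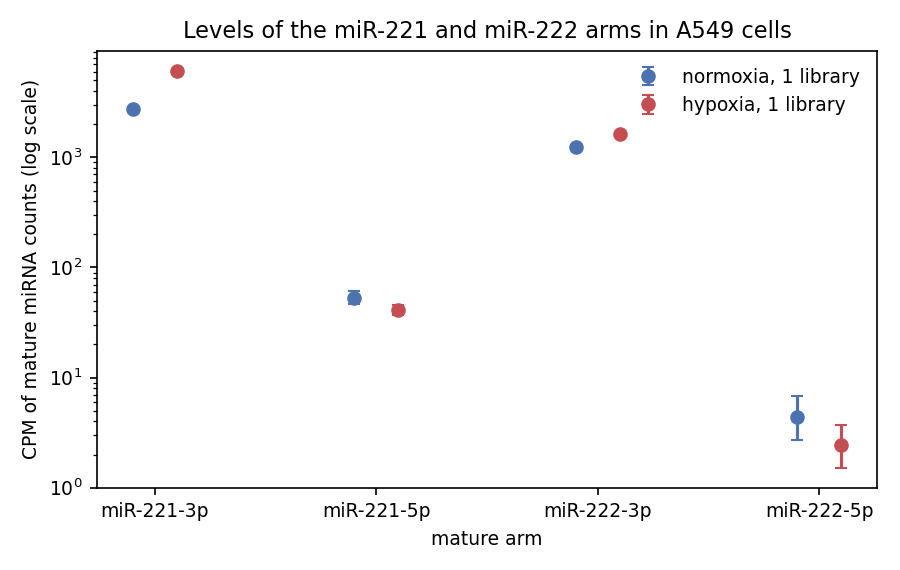
CPM of mature miRNA counts (log scale) of the 4 arms in the normoxia library (blue) and the hypoxia library (red), 1 library each. Bars are exact 95% intervals for counting error and are smaller than the points for the 3p arms. Points of the 3p arms lie above 1000 CPM and points of the 5p arms below 100 CPM in both libraries.

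The order of the levels was miR-221-3p, miR-222-3p, miR-221-5p and miR-222-5p in both libraries, and no 2 neighbours in this order had overlapping intervals. Together the 4 arms took 0.406% of mature counts in normoxia (0.400% to 0.412%) and 0.776% in hypoxia (0.770% to 0.782%). miR-221-3p accounted for 3326 CPM of the 3697 CPM by which their sum was higher in hypoxia, and miR-222-3p for 385 CPM. The 3p arms made up 98.6% of the 4-arm counts in normoxia and 99.4% in hypoxia.

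Set beside the other miRNAs, miR-221-3p stood near the top of the ratios and its neighbour did not. Of the 339 miRNAs past the filter, 12 were higher in hypoxia by at least 0.9 on the log2 scale (3.54% called), and 11 were lower by as much (3.24% called). miR-221-3p was 1 of the 12 and had the fifth highest ratio. miR-222-3p was at place 82 and miR-221-5p at place 286, and neither reached a difference of 0.9 in either direction. Since these ratios were known when the arms were picked, nothing more is read from their places. Among the 62 miRNAs with a mean of at least 1000 CPM, which carry little counting error, miR-221-3p was at place 3, after miR-210 and miR-374b-5p, and miR-222-3p was at place 19. The median log2 ratio of these 62 was 0.19.

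**Figure D3:**
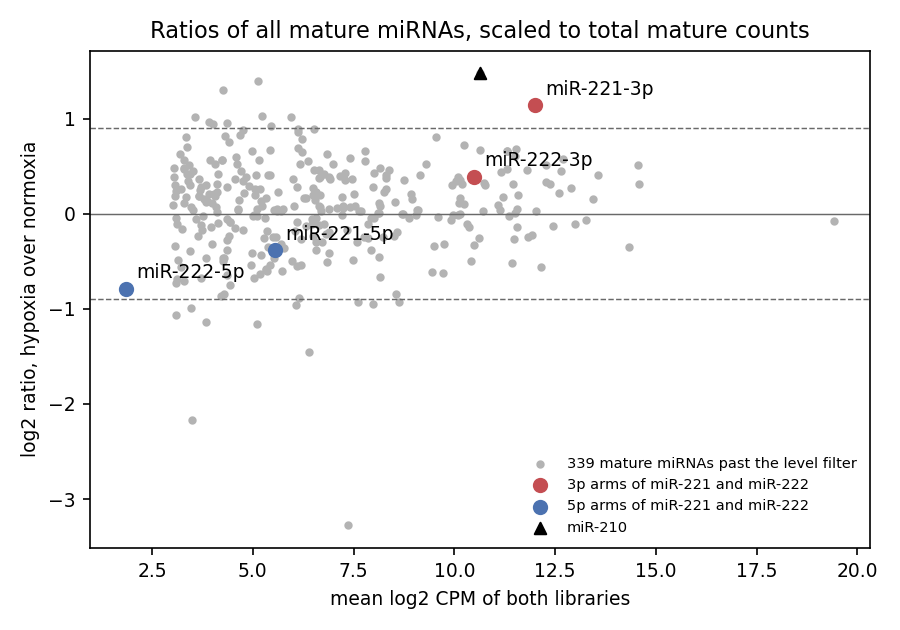
Log2 ratio of hypoxia over normoxia against the mean log2 CPM of both libraries, scaled to total mature counts. Grey points are the 339 mature miRNAs past the level filter, red points the 3p arms and blue points the 5p arms of miR-221 and miR-222 (miR-222-5p lies under the filter), the triangle is miR-210, and dashed lines mark 0.9 in either direction. miR-221-3p, at 1.14, lies above the upper line, and the other 3 arms lie between the lines.

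How the libraries are scaled sets the size of these ratios. The median log2 ratio of the 339 miRNAs was 0.079 with total mature counts and -0.035 with the trimmed mean of M values (TMM), a shift of -0.11, and the split of higher and lower miRNAs went from 12 and 11 to 8 and 15. With TMM, 2.36% were called higher, miR-221-3p among them, and 4.42% lower. When the 10 most abundant miRNAs of either library were left out of the totals, the shift was -0.19 and the split 5 and 18, with 1.47% called higher, miR-221-3p again among them, and 5.31% called lower. Relative to the median, the log2 ratio with total mature counts was 1.06 for miR-221-3p, 0.31 for miR-222-3p, -0.46 for miR-221-5p and -0.86 for miR-222-5p. Over all 5 scalings the 3p arms had positive and the 5p arms negative log2 ratios. For miR-222-5p the counting interval lay below 0 with TMM (-1.93 to -0.01) and with totals without the most abundant miRNAs (-2.01 to -0.10), and held 0 with the other 3 scalings.

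**Figure D4:**
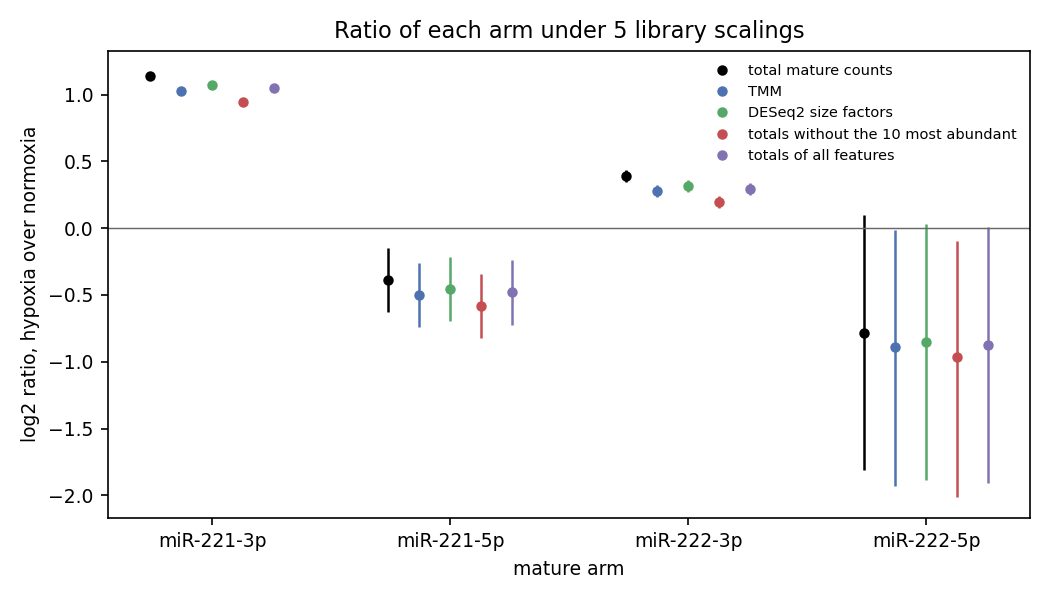
Log2 ratio of hypoxia over normoxia of each arm under 5 library scalings, shown by colour, with 95% counting intervals as lines. The points of an arm move together between scalings, from 0.95 to 1.14 for miR-221-3p, and no arm crosses 0, although some intervals of miR-222-5p do.

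Scaling cancels when 2 counts of the same library are divided, so the balance of arms and of hairpins was compared in this way. In both hairpins the 3p arm outweighed the 5p arm by more in hypoxia than in normoxia. For miR-221 there were 51.7 counts of the 3p arm for each count of the 5p arm in normoxia (45.5 to 59.0) and 149 in hypoxia (134 to 166). The balance was thus 2.88 times as uneven in hypoxia (exact conditional interval 2.44 to 3.41), a log2 change of 1.53. For miR-222 it was 281 in normoxia (182 to 459.9) and 667 in hypoxia (436 to 1078), 2.38 times as uneven (1.22 to 4.61), a log2 change of 1.25. The counting error of the second value is wide, since it rests on 20 and 21 counts of miR-222-5p.

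Other hairpins were paired by the names of their arms. The table named 199 with both arms, of which 111 had at least 10 counts of either arm in both libraries. A name can stand for more than 1 genomic copy, and for 9 of the 109 besides miR-221 and miR-222, let-7a, miR-101 and miR-194 among them, the arms were listed at different hairpins or a sequence lay in more than 1 RefSeq hairpin, so that their value is no balance of a single hairpin. In all 109, the median absolute log2 change of the balance was 0.43, and the 3p arm gained weight in hypoxia in 60. A change as large as that of miR-221 in either direction was seen in 3 of them and as large as that of miR-222 in 8. Counted as a gain of the 3p arm, these were 1, miR-671 (log2 change 1.57, counting SE 0.41, with 17 and 50 counts of the 3p arm), and 4, namely miR-671, miR-744, let-7g and miR-200a, of which the first 3 were named after their values were seen. The same 4 counts were found in the 100 names left without the 9, of which 12, miR-200a among them, had neither arm in a RefSeq hairpin of the table used and were checked by position only. In miR-671, miR-744 and let-7g the 3p arm is the rarer one, so the arms became more even there. Where a gain is counted towards the more abundant arm, 1 of the 109 matched miR-221 and 3 matched miR-222. The counting SE of the log2 change was 0.12 for miR-221. It was 0.38 to 0.57 in the 3 names with a change as large in either direction.

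In the size of the balance itself, miR-222 was among the most uneven hairpins, with 10 of 109 others as uneven in normoxia and 5 in hypoxia, and miR-221 was less so, with 26 and 19. The 3 hairpins nearest to miR-221 in balance in normoxia were miR-342, miR-200a and miR-454, whose log2 changes were -0.07, 1.25 and -0.21 with counting SEs of 0.33, 0.51 and 0.42. Those nearest to miR-222 were miR-193b, miR-29c and miR-200b, at 0.32, -0.61 and 0.17 with SEs of 0.23, 0.16 and 0.35.

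**Figure D5:**
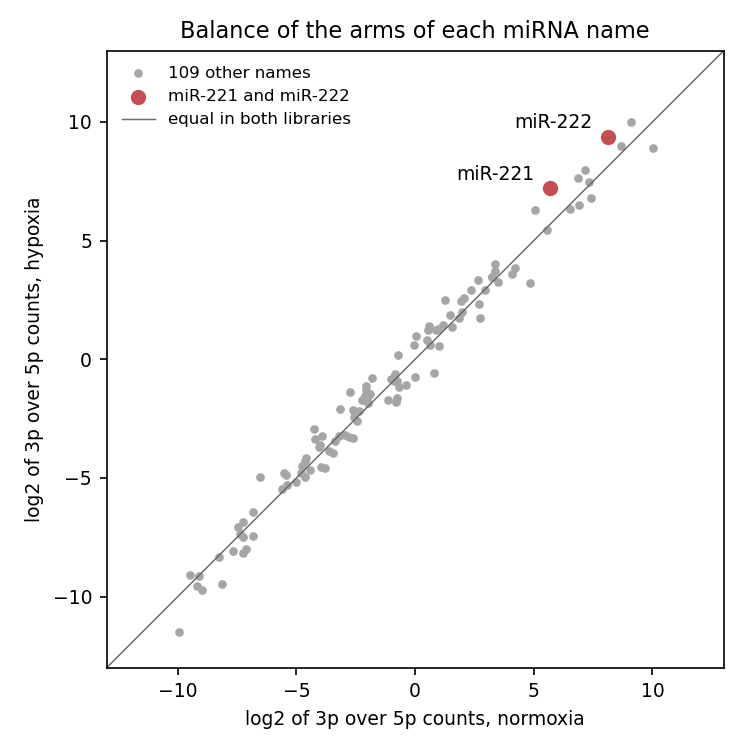
Log2 of 3p over 5p counts in hypoxia against the same in normoxia, for miRNA names with at least 10 counts of either arm in both libraries. Grey points are 109 other names, red points miR-221 and miR-222, and the line marks an equal balance in both libraries. Both red points lie above the line, by 1.53 for miR-221 and 1.25 for miR-222.

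Between the hairpins, miR-221-3p had 2.22 times the counts of miR-222-3p in normoxia (2.15 to 2.29) and 3.74 times in hypoxia (3.67 to 3.81). The guide of the downstream hairpin therefore outweighed that of its neighbour 1.68 times as much in hypoxia (1.62 to 1.75), a log2 change of 0.75. The 5p arms stood at 12.05 (7.63 to 20.1) and 16.7 (10.8 to 27.3), a change of 1.39 times with an interval from 0.696 to 2.75, so that no difference was detectable at their depth. Among 93 other pairs of miRNAs from different hairpins, of the same arm, past the filter and within 10 kb on a chromosome, the median absolute difference in log2 ratio was 0.44. It was at least as large as the 0.75 of miR-221-3p and miR-222-3p in 18 of the 93, and 50 of the 93 had ratios of the same sign. Strand was not used in forming these pairs, many of which share a miRNA or a cluster. A miRNA with several genomic copies was paired at its listed place only. No counting error was computed for the differences in the other pairs, some of which rest on few counts.

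Reads assigned to the whole hairpins rather than to a mature arm were few. How the authors' pipeline chose between these kinds of entry is not stated in the methods or labels. The MIR222 entry had 29 counts in normoxia and 106 in hypoxia, or 6.42 CPM (4.30 to 9.22) and 12.3 CPM (10.1 to 14.9), a log2 ratio of 0.94 (0.34 to 1.59), taken without a prior count. The MIR221 entry had 6 and 13 counts, or 1.33 CPM (0.488 to 2.89) and 1.51 CPM (0.805 to 2.58), a log2 ratio of 0.19 (-1.31 to 1.87). The hairpin with fewer mature reads thus had more of these reads. As a share of all counts at the hairpin they were 0.512% (0.343% to 0.735%) and 0.750% (0.614% to 0.906%) for MIR222 and 0.0472% (0.0173% to 0.103%) and 0.0247% (0.0131% to 0.0422%) for MIR221. In 89 other hairpins with at least 1000 mature counts in both libraries, the median share was 0.163% in normoxia. The share of MIR222 was reached by 12 of them in normoxia and 8 in hypoxia, and that of MIR221 by 72 and 80.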

How the data were processed

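The authors deposited raw, not normalized counts of small RNA features, with 1 column per library. Libraries were made by ligation for the SOLiD platform. The methods name the small RNA pipeline of LifeScope and miRBase for SOLiD miRNA libraries, without naming this experiment, and the submitters' processing notes name hg19. Features summing to at least 3 counts over both libraries are listed.

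Mature miRNAs were the 859 entries with a miRBase mature identifier. Shares have exact Clopper-Pearson and ratios exact conditional 95% intervals, taken from the counts without a prior count. Log2 ratios are differences of log2 CPM with a prior count of 2 from edgeR version 4.0.16 in R version 4.3.3, scaled to total mature counts. Those of the hairpin entries and the changes in balance are ratios of counts with no prior count. The filter was a mean log2 CPM above 3. Alternatives were TMM, size factors of DESeq2 version 1.42.0, totals of all features or without the 10 most abundant, another prior count, filter or threshold, 0.5 added to each count, and thinning. With 1 library per condition no p-value was computed. Intervals of CPM levels and shares were computed with scipy version 1.17.1 under Python version 3.11.15. Those of the ratios of mature miRNAs were computed in R, and the calculations were tested on simulated data. Sequences were matched to RefSeq (GRCh38.p14): 687 of 859 names had a mature entry, 3 of the 4 arms among them, and 653 entries were identical once the added base at either end was removed. The gene annotation was GENCODE version 29.

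The 4 arms, lists and comparisons were chosen with earlier results of these data known. The named miRNAs were the 4 arms, others sharing a seed, the 3 nearest to each 3p arm in level and to each hairpin in arm balance, the 3 most abundant other X-linked miRNAs, miR-210 and the cell type markers. Other names in the text (miR-671, miR-744, let-7g, let-7a, miR-101, miR-194, let-7f-1-3p, miR-374c-5p, miR-532-3p and miR-424-5p) fall outside this rule and were chosen after their values were seen.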

Additional observations from a re-analysis of the deposited data

How the results depend on the processing

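No paired analysis was possible because normoxia and hypoxia have 1 library each, nor could a library be left out. The log2 ratio of miR-221-3p was 1.14 with total mature counts, 1.03 with TMM, 1.07 with DESeq2 size factors, 0.95 with totals without the 10 most abundant miRNAs and 1.05 with totals of all features. In the same order that of miR-222-3p was 0.39, 0.28, 0.32, 0.19 and 0.30. These shifts follow from the scale alone, and no sign of the 4 arms changed under any scaling, prior count or thinning tried. With all features as the denominator the 4 arms took 0.284% in normoxia and 0.509% in hypoxia, and 2.62% and 4.38% without the most abundant miRNAs, by construction. By a log2 difference of at least 0.9, 5 of 339 miRNAs were higher and 18 lower with totals without the most abundant miRNAs. Without a filter on low levels, 113 of 859 were higher and 64 lower. Where the mean CPM had to reach 20, 9 of 263 were higher and 7 lower. With a log2 threshold of 1, 8 of 339 were higher and 6 lower. Adding 0.5 to each count or thinning the deeper library left each change in arm or hairpin balance within its counting interval. Leaving out names of more than 1 hairpin, an alternative chosen after seeing the data, kept 3 and 8 as the numbers of other names with a change in arm balance as large as that of miR-221 and miR-222. Thinning took the log2 change of the miR-222 arm balance from 1.25 to 0.81 and that of the 5p arms between the hairpins from 0.47 to -0.09, as these rest on 20 and 21 counts of miR-222-5p, for which depth limits every statement.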

Other observations

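The miRNA nearest to miR-221-3p in level over both libraries was miR-374b-5p, another X-linked miRNA from a distant locus (chrX:73438421-73438444 in hg19). It had 12376 counts in normoxia and 52398 in hypoxia, against 12455 and 52333 for miR-221-3p, and its log2 ratio was 1.15. The sequences are unrelated, at an edit distance of 13. The next nearest, miR-30d-5p and let-7f-5p, were at 3067 and 4119 CPM in normoxia and 4221 and 5858 CPM in hypoxia. Those nearest to miR-222-3p were miR-191-5p, miR-425-5p and miR-34a-5p, with log2 ratios of 0.67, 0.32 and 0.10.

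Of 72 other mature miRNAs listed from the X chromosome, 41 passed the filter, and their median log2 ratio was 0.01, against 0.08 for the 336 miRNAs past the filter on all chromosomes besides miR-221 and miR-222, which include these 41. By at least 0.9 on the log2 scale 3 of the 41 were higher in hypoxia, miR-374b-5p, miR-374c-5p (0.96) and miR-532-3p (0.92), and 1 was lower, miR-424-5p (-0.92), all but the first named after their values were seen. Of the 336, 11 were higher (3.27%) and 11 lower (3.27%) by as much. With TMM 1 of the 41 was higher and 2 were lower, against 7 and 15 of the 336, and with the deeper library thinned 1 of the 41 was higher and 1 lower, against 12 and 11 of the 336. The positions are those listed in the table, and a miRNA with several genomic copies is listed at 1 of them. The most abundant were let-7f-5p (also made from a hairpin on chromosome 9, where let-7f-1-3p had 146 and 275 counts, so that its counts cannot be given to the X chromosome), miR-374b-5p and miR-224-5p, the last with 2155 CPM in normoxia and 2995 CPM in hypoxia. miR-374b-5p and miR-374c-5p come from overlapping hairpins.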
